A study of Mus musculus with 5 samples.

Results

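Gamma-delta T cells of the mouse aortic arch were chosen by their transcripts among sorted live CD45-positive cells. A cell was taken where it held at least 3 molecules of Trdc, the constant gene of the delta receptor chain, and more Trdc than Trac, the constant gene of the alpha chain. It also had to stay under 30 molecules of the macrophage genes C1qa, C1qb and C1qc and under 10 of the B cell genes Cd79a and Cd79b per 10000 molecules of the cell, with at most 25% of its molecules from mitochondrial genes. The rule found 107 cells among 1656 that met the mitochondrial limit and 1743 deposited. They were compared with 351 other cells that had at least 4 molecules of Cd3d, Cd3e and Cd3g per 10000 and met the same C1q and Cd79 limits, called other CD3 cells below.

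The cells came from female mice 12 weeks old at the start, injected once with an adeno-associated virus that expresses its cargo from hAAT, a promoter active in liver, and kept on a Western diet for 18 weeks. Both genotypes had this treatment. One pool was labelled C57BL/6J wild-type and the other Saa3-/-, with the allele C57BL/6N-Saa3tm1.1(KOMP)Vlcg/MbpMmucd. The labels thus differ in substrain as well as in Saa3, although the series calls the animals littermates, and the effects of the 2 cannot be told apart. Each genotype had 1 pool, told apart by a sample tag, and the number of mice in a pool is not given in the sources used here.

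Gamma-delta T cells carry a receptor of a gamma and a delta chain and respond quickly to cytokines without the usual need for antigen presentation. One branch leaves the thymus early in life, settles in barrier and connective tissues and makes interleukin-17 under Sox13 and Maf when stimulated by interleukin-1 and interleukin-23. Another branch resembles cytotoxic T cells and makes interferon-gamma.

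The pool labelled wild-type gave 57 of the 107 cells and the pool labelled Saa3-/- 50. Their sums held 303613 and 254804 molecules, with a median of 4707 and 4379.5 per cell. Other CD3 cells numbered 142 and 209, with medians of 4324 and 3993 molecules. No cell index was shared by the pools. Saa3 itself gave no clear check of the labels. Over all kept cells its level was higher in the pool labelled Saa3-/-, at 2.42 molecules per 10000 (exact Poisson 95% interval 2.29 to 2.56) against 1.48 (1.39 to 1.57). The share of kept cells with a Saa3 molecule went the other way, with 170 of 833 cells (20.4%, exact binomial 17.7 to 23.3) under the wild-type label and 114 of 823 (13.9%, 11.6 to 16.4) under the Saa3-/- label, at median depths of 6415 and 4698. The pools are therefore named by their labels throughout. In the gamma-delta cells Saa3 had 7 molecules in 5 of 57 cells and 4 in 4 of 50, or 0.231 and 0.157 per 10000, against 0.328 and 0.287 in other CD3 cells. Intervals of levels and shares cover counting error only.

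The promoters of 2 genes that mark the interleukin-17 branch are shown because both genes were far higher in the gamma-delta cells than in other CD3 cells. Il17a encodes the cytokine itself and lies on chromosome 1 from 20730905 to 20734496, plus strand. Il23r encodes the receptor for interleukin-23 and lies on chromosome 6 from 67422932 to 67491855, minus strand. The 250 bases before each start site are given 5′ to 3′ on the gene's strand from RefSeq (GRCm38.p6), at chr1:20730655-20730904 for Il17a and chr6:67491856-67492105 for Il23r. Capitals mark AGGTCA on either strand (TGACCT when read on the other), a core bound by several nuclear receptors.
Il17a: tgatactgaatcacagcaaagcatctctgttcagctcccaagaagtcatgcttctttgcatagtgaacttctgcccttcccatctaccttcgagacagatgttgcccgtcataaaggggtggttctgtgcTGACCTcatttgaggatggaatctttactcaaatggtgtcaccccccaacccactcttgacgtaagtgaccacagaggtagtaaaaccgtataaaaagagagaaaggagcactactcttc
Il23r: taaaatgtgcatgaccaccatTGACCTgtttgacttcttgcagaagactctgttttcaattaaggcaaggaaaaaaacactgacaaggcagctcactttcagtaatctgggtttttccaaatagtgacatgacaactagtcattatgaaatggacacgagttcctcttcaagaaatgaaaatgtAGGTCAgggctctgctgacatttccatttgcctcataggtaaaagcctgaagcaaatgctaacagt
The core begins 120 bases before the Il17a start and 229 and 66 bases before the Il23r start. Of the 24 genes on the interleukin-17 list used below, 19 had a window in the table, and 6 of these held the core within 250 bases (Il17a, Il17f, Il23r, Ccr6, Actn2 and 5830411N06Rik). The core occurred in 14.0% of all 32851 windows of that length, so such a match is common and describes the letters only. That share counts windows, whereas a list gene counted with the core in any of its windows, so the 2 figures are not directly comparable.

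The label was compared with 5 marker genes, of which Trdc was part of the rule. Trdc lies on chromosome 14 from 54142851 to 54148868 (GRCm38, GENCODE release 21, plus strand), upstream of Trac at 54220521 to 54224206. Under the wild-type label the 57 cells held 3 to 41 Trdc molecules with a median of 14, and under the Saa3-/- label the 50 cells held 3 to 50 with a median of 11. Over both pools the level was 27.1 per 10000 (25.7 to 28.5). Trdc was not absent elsewhere: 15.4% of other CD3 cells had a Trdc molecule (11.8 to 19.6, exact binomial) at 0.479 per 10000, and 15.4% of cells high in C1q had one (12.0 to 19.4) at 0.168 per 10000 and a median depth of 8007 molecules. 11 members sat at the limit of 3 Trdc molecules and 6 of them had Cd163l1, whereas 13 cells just outside it with 2 Trdc molecules met the other limits and 2 of those had Cd163l1.

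The other 4 markers were each found in most of the gamma-delta cells. Tcrg-C1, a gamma chain constant gene (chromosome 13, 19214103 to 19217024, plus strand), had a molecule in 92 of 107 cells. Cd163l1, also called Scart1, a scavenger receptor family member of gamma-delta T cells (chromosome 7, 140218267 to 140231145, plus strand), had one in 89. Il7r, the receptor for the survival cytokine interleukin-7 (chromosome 15), was found in 94, and Blk, a Src-family kinase (chromosome 14), in 83. All 4 occurred together in 78 cells, and none of the 4 in 7. A CD3 molecule of any of the 3 chains was present in 104 members, and 96 reached the CD3 level required of the comparison cells. The 4 markers were chosen with earlier results of these data known, so their presence is a description and not an independent check. By these markers the label held for most members, and the cells it did not hold for are described at the end.

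These markers set the gamma-delta cells apart in both pools. The contrast was tested on 4 sums of molecules, 2 classes in each of 2 pools, with edgeR's quasi-likelihood test and the pool as a block. Genes of the rule were left out, and all p-values are Benjamini-Hochberg adjusted over the 7805 genes tested, with 0.05 as the limit for a call. Of these genes, 440 were called higher in gamma-delta cells (5.64%) and 297 lower (3.81%), with a median log2 fold change of -0.01. Calls in either direction came to 9.44%. The fit has 1 residual degree of freedom and takes most of its spread from all genes together, so small p-values rest on that shared estimate. DESeq2 called fewer, 145 higher and 45 lower. Of the genes named below as higher or lower by the edgeR test, it did not call Maf, Zap70, Il4ra, Icos, Tnfsf14, Junb, Fosb and Stmn1 on the higher side. On the lower side it did not call Fyn, Cd6, Cd8a, Cd8b1, Ifng, Fasl, Nkg7, Il10ra, Il6ra, Il21r, S1pr1, Itgb1, Tigit, Lag3, Btla, Ctla4, Tox, Bach2, Sox4, Rag1, Gimap7, Btbd11, Izumo1r, Hspb6 and Plscr1. A gene without a DESeq2 adjusted p would be missing from both lists, so absence from them is not a DESeq2 call. The classes were chosen by Trdc in the same cells, so the edgeR and DESeq2 tests say how far apart cells so chosen were.

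**Figure D1:**
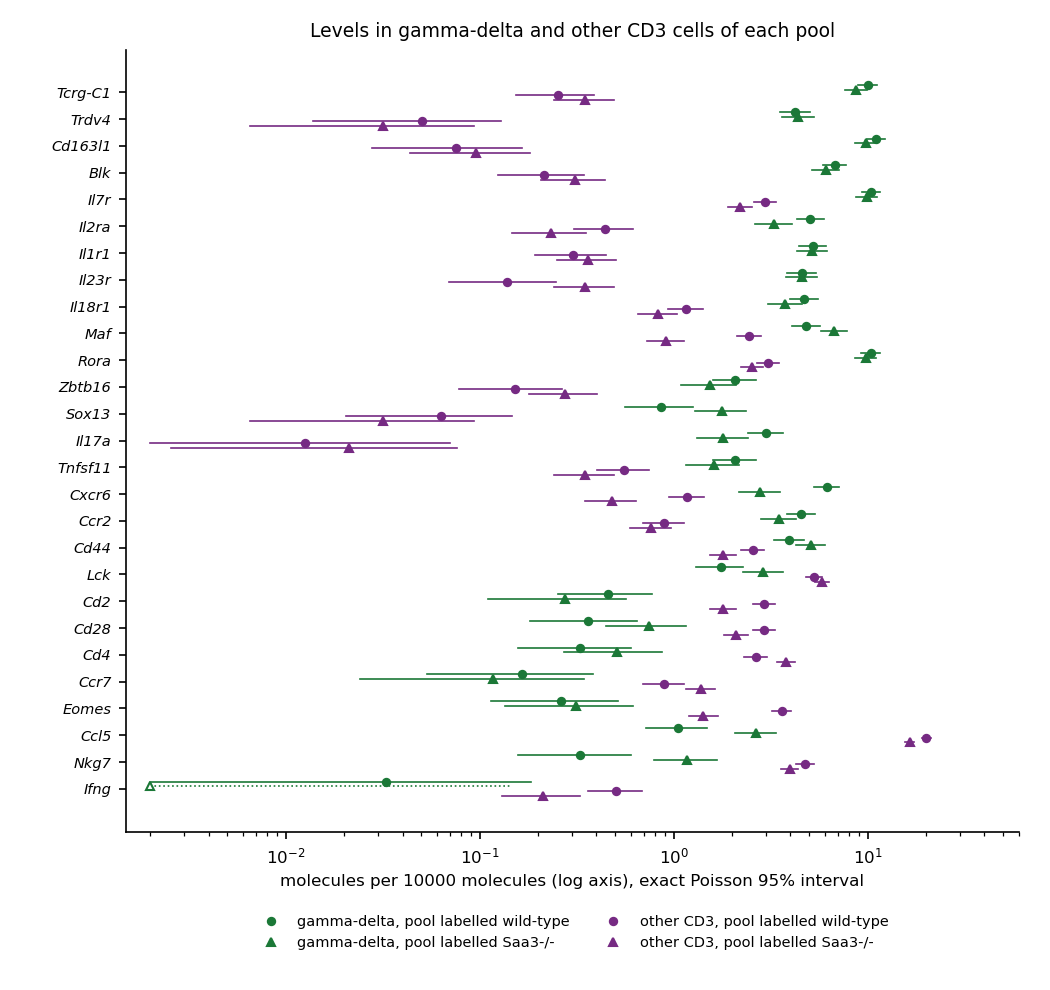
Levels of 27 genes as molecules per 10000 molecules (log axis) in gamma-delta cells (green) and other CD3 cells (purple) of the pool labelled wild-type (circles) and the pool labelled Saa3-/- (triangles). Lines are exact Poisson 95% intervals and stop at the axis, and an open symbol on a dotted line stands for 0 molecules. From Tcrg-C1 to Cd44 the gamma-delta cells lie above other CD3 cells in both pools, and from Lck to Ifng they lie below.

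T cell receptor genes had 8 members with enough molecules to be tested, of which 5 were called higher and 1 lower, with a median log2 fold change of 2.76. Trdv4, a delta variable segment (chromosome 14, 54074905 to 54075515, plus strand), was at 4.25 molecules per 10000 (3.55 to 5.05) in the gamma-delta cells of the pool labelled wild-type and at 4.40 (3.62 to 5.29) in those of the pool labelled Saa3-/-. Other CD3 cells had 0.0504 and 0.0319. The classes did not overlap, and the log2 fold change was 6.72 (SE 0.37, adjusted p = 5.75e-69). Trdv4 was found in 76 of 107 gamma-delta cells and in 6 of 351 other CD3 cells. Trdv4 was not itself in the rule but belongs to the same receptor chain as Trdc, so it is not independent of the rule. With each cell thinned to 2000 molecules and 12 shallower cells left out, it was found in 57.9% and 48.9% of gamma-delta cells by pool and in 1.47% and 0.485% of the others.

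Tcrg-V6, the gamma variable segment that pairs with Trdv4 in fetal-derived cells (chromosome 13, 19190356 to 19190929, plus strand), was seen in 22 gamma-delta cells (10 and 12 by pool) and in none of the 351 others. Its level was at least 31.1-fold higher than the 3 molecules that a count of 0 allows over the other CD3 cells. 18 of the 22 cells also had Trdv4, and all 22 had Tcrg-C1. Trgv2, another gamma variable segment, was found in 15 gamma-delta cells and in 20 of the 351 others, so it did not set the classes apart as Tcrg-V6 did. Tcrg-V1 was found in 8 gamma-delta cells and Tcrg-V5 in 2, whereas Tcrg-V4 and Tcrg-V7 had no molecule in any. A delta variable segment other than Trdv4 was found in 5 members. In all, 88 of 107 cells had a molecule of some gamma or delta variable segment and 80 had Trdv4 or Tcrg-V6. Trdv4 had a median of 1 molecule per cell in each pool, and Tcrg-V6 had 30 molecules over all 107 cells. A cell without a segment may therefore have been missed.

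Gamma constant genes rose together. Tcrg-C1 was at 10.0 and 8.71 per 10000 in gamma-delta cells by pool (wild-type label first, as in every pair below) against 0.252 and 0.351 in other CD3 cells, a log2 fold change of 4.99 (SE 0.22, adjusted p = 1.68e-105). Tcrg-C4 rose by 3.52 (SE 0.36) and Tcrg-C2 by 2.00 (SE 0.31). Reads of these copies can be mixed: 34.2% of the stretches of 50 bases in Tcrg-C1 transcripts occur in those of another gene, most often Tcrg-C3, and 25.4% of those in Tcrg-C2, while Tcrg-C4, Trdv4 and Tcrg-V6 share none.

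Alpha and beta chain genes behaved differently from each other. Trac, part of the rule, was at 0.955 and 1.06 per 10000 in gamma-delta cells and 9.65 and 7.95 in other CD3 cells. No gamma-delta cell held a molecule of any of the 48 alpha variable genes in the tables, while 34 of 351 other CD3 cells did. These genes belong to the same chain as Trac, so their absence is not independent of the rule. Beta chain transcripts were present: Trbc2 was at 11.1 and 12.1 per 10000 in 93 of the gamma-delta cells, against 23.1 and 24.2 in other CD3 cells (log2 fold change -0.97, SE 0.10, adjusted p = 5.22e-19). Trbc1 was at 5.57 and 7.38 against 4.29 and 6.97, which did not pass (0.28, SE 0.16, adjusted p = 0.33). The 17 gamma-delta cells with a molecule of the thymocyte genes Rag1, Rag2, Dntt or Ptcra, described below, held 344 of the 646 Trbc2 and 219 of the 357 Trbc1 molecules. The other 90 had Trbc2 at 7.49 and Trbc1 at 3.42 per 10000. With such cells left out of both classes Trbc2 stood at -1.01 and Trbc1 at -0.21. A beta variable segment was found in 11 of 107 gamma-delta cells and in 121 of 351 others. Trbc1 and Trbc2 share 40.5% and 44.0% of their stretches with each other, so the split between them is uncertain.

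The interleukin-17 program was higher almost throughout. The list held 24 genes, of which 21 had enough molecules to be tested. 20 were called higher and none lower, with a median log2 fold change of 3.16, against -0.01 over all genes tested. All 21 were higher in each pool on its own. Of the 3 members with too few molecules to test, 5830411N06Rik went the other way. It had 1 molecule in gamma-delta cells and 22 in 5 other CD3 cells, a ratio of 7.08 (counting interval 1.14 to 292). The list was drawn up with earlier results of these data known, so its direction is a description.

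Il17a was at 3.00 (2.41 to 3.68) and 1.81 (1.32 to 2.41) molecules per 10000 in gamma-delta cells and at 0.0126 and 0.0213 in other CD3 cells. Other CD3 cells held 3 Il17a molecules in all against 137, a ratio of 142 with a counting interval of 47.5 to 696. The log2 fold change was 6.97 (SE 0.50, adjusted p = 1.16e-40). Expression was uneven over cells: Il17a was found in 25 of 107 gamma-delta cells, 10 cells with at least 5 molecules held 81.0% of the total and a single cell held 29 molecules. Il17f, its close relative, had 9 positive gamma-delta cells and did not pass (log2 fold change 2.02, SE 0.73, adjusted p = 0.0578). Il22 had no molecule in either class.

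The receptors that drive interleukin-17 were spread more evenly. Il23r was at 4.58 and 4.59 per 10000 in gamma-delta cells and 0.139 and 0.351 in other CD3 cells (log2 fold change 4.28, SE 0.28, adjusted p = 2.24e-50), with a molecule in 77 of 107 cells. Il1r1, the receptor for interleukin-1, was at 5.20 and 5.18 against 0.302 and 0.361 (4.01, SE 0.26), in 79 cells. Il18r1, a chain of the interleukin-18 receptor, rose by 2.16 (SE 0.23). The pools were alike in Il23r and Il1r1, with intervals that overlapped almost fully.

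Transcription factors of this branch were called higher with less uniform size. Sox13 had a log2 fold change of 4.79 (SE 0.50), Zbtb16, which encodes PLZF, 3.11 (SE 0.36), Maf 1.93 (SE 0.20) and Rora 1.91 (SE 0.16). Over the whole list of 28 transcription factors, 25 were tested, 6 were higher, 6 lower and 13 not called. The 6 lower were Eomes, Lef1, Satb1, Tox, Bach2 and Sox4, and Gata3 (0.27, SE 0.31) and Tcf7 (-0.11, SE 0.14) did not pass. Of 427 Tcf7 molecules in gamma-delta cells, 312 were in the 17 cells with thymocyte genes, and the other 90 had Tcf7 at 2.85 per 10000. With such cells left out of both classes Tcf7 stood at -0.69 and did not pass, and with each cell thinned to 2000 molecules it was called lower at -0.71. Foxp3, the factor of regulatory T cells, had 0 molecules in gamma-delta cells.

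Surface and structural genes of the program followed. Cd163l1 was at 11.03 and 9.81 per 10000 against 0.0756 and 0.0956 (log2 fold change 6.93, SE 0.26, adjusted p = 2.38e-149), the smallest adjusted p of any gene tested. Blk was at 6.78 and 6.08 against 0.214 and 0.308 (4.66, SE 0.25). Serpinb1a, a protease inhibitor, rose by 4.38, Kcnk1, a potassium channel, by 4.48, Aqp3, a water and glycerol channel, by 3.47, and the cation channel homologs Tmem176a and Tmem176b by 3.16 and 2.94. Ccr6, a homing receptor often used to mark such cells, had a molecule in only 5 gamma-delta cells and was not tested.

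**Figure D2:**
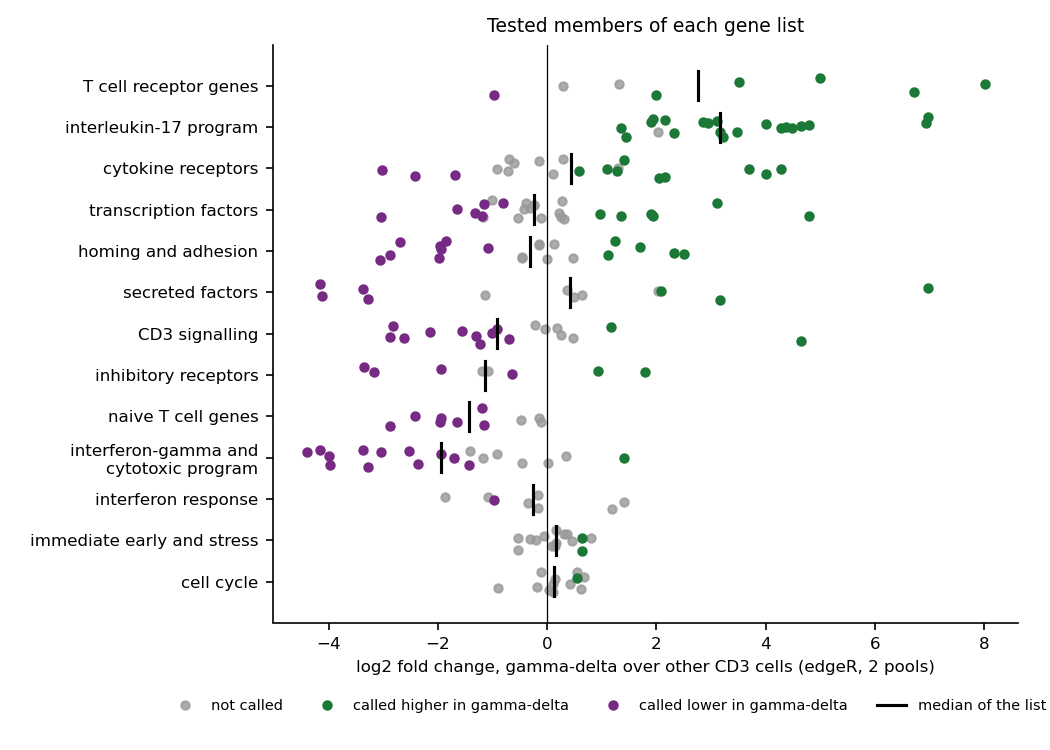
Log2 fold change of gamma-delta over other CD3 cells for each tested member of 13 gene lists, 1 point per gene. Green points were called higher, purple lower and grey not called at an adjusted p of 0.05, and black bars are list medians. The interleukin-17 list lies wholly above 0 with a median of 3.16, and the interferon-gamma and cytotoxic list mostly below with a median of -1.95.

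The interferon-gamma and cytotoxic program ran the other way. Of 20 genes, 19 were tested, 12 were called lower and 1 higher, with a median log2 fold change of -1.95. Ccl5, a chemokine of effector T cells, was at 1.05 and 2.67 per 10000 against 20.1 and 16.5 (log2 fold change -3.29, SE 0.15, adjusted p = 6.12e-99). Nkg7, a protein of cytotoxic granules, fell by 2.54 (SE 0.26) and Eomes, a factor of cytotoxic cells, by 3.04 (SE 0.36). Ifng had 1 molecule in 107 gamma-delta cells and 60 in other CD3 cells, a ratio of 19.3 with a counting interval of 3.34 to 776. Fasl, the ligand of the death receptor Fas, had 1 against 71, a ratio of 22.9 (3.97 to 915). Gzma did not pass (0.34, SE 0.24, adjusted p = 0.505). With CD3 required of each gamma-delta cell it stood at -0.81. The 1 gene higher was Il2rb, the beta chain of the receptors for interleukin-2 and interleukin-15, at 9.62 and 8.01 against 4.50 and 2.59 (1.41, SE 0.16, adjusted p = 5.35e-17).

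Cytokine receptors as a list were mixed. All 20 were tested, with 9 higher, 3 lower and a median of 0.43. Il2ra, the alpha chain of the high-affinity interleukin-2 receptor, was at 5.07 and 3.30 per 10000 against 0.441 and 0.234 (log2 fold change 3.70, SE 0.27). Il7r was at 10.4 and 9.93 against 2.96 and 2.20 (2.05, SE 0.16, adjusted p = 2.95e-35). Ifngr1, a receptor chain for interferon-gamma, rose by 1.09 (SE 0.16), and Il4ra by 1.28 (SE 0.31). The 3 lower were Il10ra, Il6ra and Il21r, receptor chains for other interleukins, at -3.04, -2.43 and -1.69.

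Proximal signalling genes separated the classes by kinase. Lck, the Src-family kinase that starts signalling in most T cells, had a molecule in 23 of 107 gamma-delta cells and in 285 of 351 other CD3 cells. Its level was 1.75 and 2.90 per 10000 against 5.28 and 5.80 (log2 fold change -1.22, SE 0.20, adjusted p = 2.42e-08). Among the 89 gamma-delta cells with Cd163l1, only 8 had a Lck molecule whereas 81 had Blk. Zap70, the next kinase, rose by 1.16 (SE 0.26), and Fyn fell by 0.92 (SE 0.21). The coreceptor and costimulatory genes Cd4, Cd5, Cd2, Cd28, Cd6, Cd8b1 and Cd8a were all called lower, between -2.89 for Cd4 and -1.01 for Cd8a. Of the 17 tested members of the CD3 signalling list, 2 were higher, 10 lower and 5 not called, with a median of -0.92.

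Naive T cell genes had 7 of 10 tested members lower and none higher, with a median of -1.42. Ccr7 and S1pr1, receptors for entry to and exit from lymph nodes, fell by 2.88 (SE 0.48) and 1.97 (SE 0.44), and Klf2, a factor that keeps both on, by 1.94 (SE 0.31). Among 20 tested homing and adhesion genes, 8 were lower and 5 higher, with a median of -0.31. Higher were Cxcr6, a receptor of tissue-resident lymphocytes (2.51, SE 0.24), Ccr2, a receptor for inflammatory chemokines (2.33, SE 0.24), Itgb7 (1.70, SE 0.24), Rgs1 (1.25, SE 0.14) and Cd44 (1.12, SE 0.20). Itga4 and Itgb1, the chains of integrin VLA-4, fell by 1.98 (SE 0.23) and 1.08 (SE 0.21).

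Among secreted factors, 12 of 26 genes had enough molecules to be tested, with 3 higher and 4 lower. Beside Il17a, the higher ones were Tnfsf11, which encodes RANKL (2.09, SE 0.32), and Tnfsf14, which encodes LIGHT (3.16, SE 0.67). Ccl5, Ifng, Tnfsf8 and Xcl1 were lower. Among receptors that restrain or costimulate T cells, Pdcd1, the gene of PD-1, was at 1.61 and 1.22 per 10000 against 0.605 and 0.276 (1.78, SE 0.34, adjusted p = 6.17e-06) and Icos rose by 0.94 (SE 0.20), whereas Tigit, Lag3, Btla and Ctla4 fell by 3.36, 3.17, 1.94 and 0.65. The immediate early and stress genes that tissue digestion can induce, such as Fos and Hspa1a, had 2 of 15 called, Junb at 0.64 (SE 0.10) and Fosb at 0.65 (SE 0.17), both higher.

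The genes with the largest fold changes at 20 or more molecules and at least 2-fold in the same direction in both pools were, on the higher side, Tcrg-V6, Il17a, Cd163l1, Tdrd9, Trdv4, Tns4, Tcrg-C1, Cryba4, Tshz3 and Sox13. Tdrd9, a helicase known from the germ line, had 46 molecules in 26 gamma-delta cells against 1 in other CD3 cells, a ratio of 143 with a counting interval of 24.4 to 5764. Tns4, a tensin, had 32 in 23 cells against 1, and Cryba4, a crystallin of the lens, had 23 in 19 cells against 2. Tshz3, a zinc finger factor, had 21 in 15 cells against 2. On the lower side, Gimap7, a GTPase of lymphocyte survival, had 0 molecules in gamma-delta cells and 118 in other CD3 cells, at least 12.7-fold lower with 3 molecules allowed over the class. Btbd11, Izumo1r, A930003A15Rik and Gm47015 were likewise at 0, at least 8.37-, 7.30-, 6.33- and 5.04-fold lower. Izumo1r encodes folate receptor 4 of regulatory and resting CD4 T cells. Abcb1a, a drug efflux pump, had 2 molecules against 156, and Plscr1 had 1 against 61. Hspb6 and Retnlg, genes of smooth muscle and of neutrophils, had 1 molecule each against 72 and 119, and 1 other CD3 cell held 94 of the Retnlg molecules.

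Markers of other cell types moved with the contrast in part. The summed level of 5 smooth muscle markers was 6.82 and 6.48 per 10000 in gamma-delta cells against 11.8 and 13.9, and 4 of the 5 were called lower. The 4 neutrophil markers summed to 0.198 and 0.353 against 3.16 and 1.76, and all 3 that were tested were lower. The 7 macrophage markers summed to 11.6 and 10.8 against 12.6 and 11.7, with none of 4 tested called. The other 3, C1qa, C1qb and C1qc, were limited by the rule in both classes, so these sums are partly set by it. The 6 NK cell markers summed to 0.428 and 1.81 against 3.87 and 1.79. The 1.81 leans on 1 cell without a CD3 molecule, which held all 14 molecules of the NK marker Klra8 in gamma-delta cells. The 6 thymocyte markers summed to 4.15 and 7.69 against 7.23 and 11.9, where 2 of 4 tested were lower. Of the defining markers, Ms4a1, Xcr1, Clec9a, Cd209a, Cdh5, Kdr, Il5 and Klrg1 had 0 molecules in gamma-delta cells. The lists they belong to were not at 0. The 5 B cell markers summed to 2.24 and 2.43 against 2.77 and 2.90, and the 5 endothelial markers to 0.823 and 0.589 against 0.756 and 1.12. The 5 fibroblast markers summed to 6.39 and 5.93 against 7.39 and 11.5. The part of such RNA in the contrast was not tested.

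The gamma-delta cells were not uniform, and Cd163l1 marked the split. The 89 cells with a Cd163l1 molecule (49 and 40 by pool) had a median of 14 Trdc molecules and a median depth of 4395. The 18 without (8 and 10) had a median of 5 Trdc molecules at a median depth of 9321, so they were deeper and yet held less Trdc. Both sets are defined from these data, and the values that follow are a description. Of the 89 cells, 74 had Trdv4, 81 Blk, 86 Il7r, 77 Il1r1, 74 Il23r and 69 Cxcr6. Of the 18, 2 had Trdv4, 2 Blk, 8 Il7r, 2 Il1r1, 3 Il23r and 2 Cxcr6.

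**Figure D3:**
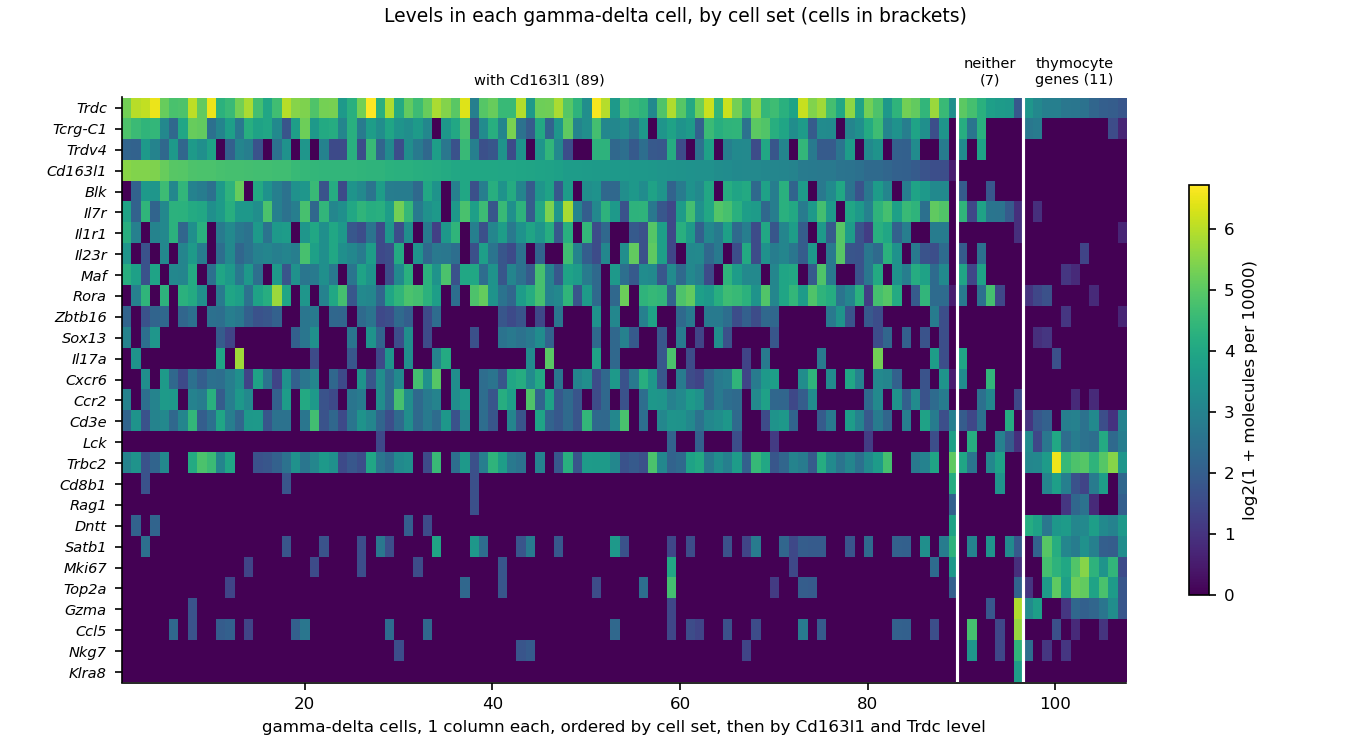
Level of 28 genes (rows) in each of the 107 gamma-delta cells (columns), as log2 of 1 plus molecules per 10000. White lines part the 89 cells with Cd163l1, the 7 without Cd163l1 and without a molecule of Rag1, Rag2, Dntt or Ptcra, and the 11 without Cd163l1 but with such a molecule. The 11 cells at the right lack Trdv4, Cd163l1, Blk and Cxcr6, all have Lck and Dntt, and 9 have Mki67.

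11 of the 18 cells without Cd163l1 carried thymocyte genes, meaning a molecule of Rag1, Rag2, Dntt or Ptcra, which cut, extend or accompany receptor genes as they are assembled. These 11 cells had 3 to 10 Trdc molecules and a median depth of 9828. All 11 had Lck, 10 had Cd3e, 8 had Cd8b1, 9 had Mki67 and 9 had Gzma, while none had Trdv4, Blk or Cxcr6. Tcf7 and Satb1, factors of early T cell development, were at 19.1 and 7.90 molecules per 10000, against 4.90 and 2.48 in the cells with Cd163l1. Without 1 cell of the latter, which held 90 Tcf7 and 42 Satb1 molecules, those levels were 2.85 and 1.53. Of the marker genes that did not choose these cells, Blk was absent and Il7r was found in 1, while Tcrg-C1 was found in 4, at 1.32 molecules per 10000 (0.737 to 2.17) against 0.306 in other CD3 cells. The markers were thus mixed, and these are called here cells with thymocyte genes. The remaining 7 cells were varied. 1 cell, of the pool labelled Saa3-/-, held 14 molecules of Klra8, an NK cell receptor, 68 of Gzma and 56 of Ccl5, with 3 of Trdc and none of Cd3d, Cd3e and Cd3g. Another held 10 molecules of Il1rl1, the interleukin-33 receptor of type 2 innate lymphoid cells, 5 of Trdc and no CD3 molecule.

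Thymocyte genes also occurred in 6 of the 89 cells with Cd163l1. One of these, the cell rich in Tcf7 just described, held 22025 molecules, the most of any gamma-delta cell, with 37 of Cd8b1, 20 of Trdc and 1 of Cd163l1. No doublet caller was run, and 11 cells with both sample tags were not in the tables. For a thymocyte gene 1 molecule was enough. In the 6 cells with Cd163l1 (1 and 5 by pool), the cell of 22025 molecules held 30 of the 34 Dntt and 7 of the 8 Rag1 molecules. The others of the 6 thus counted by few molecules. A thymocyte gene was found in 6 of 57 gamma-delta cells under the wild-type label (10.5%, 3.96 to 21.5) and in 11 of 50 under the Saa3-/- label (22.0%, 11.5 to 36.0). The shares among other CD3 cells were 18.3% (12.3 to 25.7) and 32.1% (25.8 to 38.8). With these cells left out of both classes, a choice made after seeing the data, 434 genes were called higher and 235 lower. Stmn1 then lost its call, at -0.52. With such cells left out of the comparison class alone, Sox4 lost its call at 0.47, and Satb1, Trbc2, Cd8a, Cd8b1, Icos, Junb and Fosb lost theirs.

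Cell cycle genes came from few cells. Mki67 and Top2a together reached 2 molecules in 15 gamma-delta cells (7 and 8), at a median depth of 9335, and these had a median of 5 Trdc molecules. Of the 12 cycle genes, Stmn1 alone was called (0.54, SE 0.17, adjusted p = 0.0170), and Mki67 was not (0.03, SE 0.19, adjusted p = 0.967). With cells with thymocyte genes removed from both classes Stmn1 stood at -0.52 and Mki67 at -1.75.

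Cells with Il17a were compared with those without as a description. The 25 cells with Il17a had a median depth of 4914 against 4488 in the 82 without, and 23 of them had Cd163l1 and 19 Trdv4. Trdv4 was at 7.30 (5.82 to 9.04) molecules per 10000 in cells with Il17a and 3.54 (3.01 to 4.14) in those without. Blk was at 10.3 and 5.46, Ccr2 at 6.61 and 3.41, and Il23r at 4.69 and 4.56. Sox13 was at 2.00 and 1.08 and Maf at 8.08 and 5.07. The set without Il17a includes 16 of the 18 cells that also lack Cd163l1.

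The pools were compared last, since the study asks what Saa3 does in aortic immune cells. Gamma-delta cells made up 6.84% (5.22 to 8.77) of kept cells in the pool labelled wild-type and 6.08% (4.54 to 7.93) in the pool labelled Saa3-/-. As a share of gamma-delta and other CD3 cells together they were 28.6% (22.5 to 35.5) and 19.3% (14.7 to 24.6), the lower share going with 142 and 209 other CD3 cells. Without cells with thymocyte genes in either class the shares were 30.5% (23.7 to 38.1) and 21.5% (15.8 to 28.3). With 1 pool per genotype there is no test, and digestion, sorting and tagging of each pool cannot be told apart from the label.

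Within the gamma-delta cells few genes differed by 2-fold between pools. Of the 2309 genes with at least 50 molecules over both pools, 34 had a log2 ratio of at least 1 toward the pool labelled Saa3-/- (1.47%) and 37 toward the pool labelled wild-type (1.6%), 3.07% in all, and the median ratio was 0.00. Among 18 genes of the interleukin-17 list with that many molecules, the median was -0.12 and the range -0.72 for Il17a to 1.03 for Sox13. Sox13 was at 0.856 (0.559 to 1.25) and 1.77 (1.29 to 2.36) per 10000, found in 16 of 57 and 22 of 50 cells. It was the only gene of that list past 1. Cd163l1 had a ratio of -0.17 and Tcrg-C1 of -0.20.

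**Figure D4:**
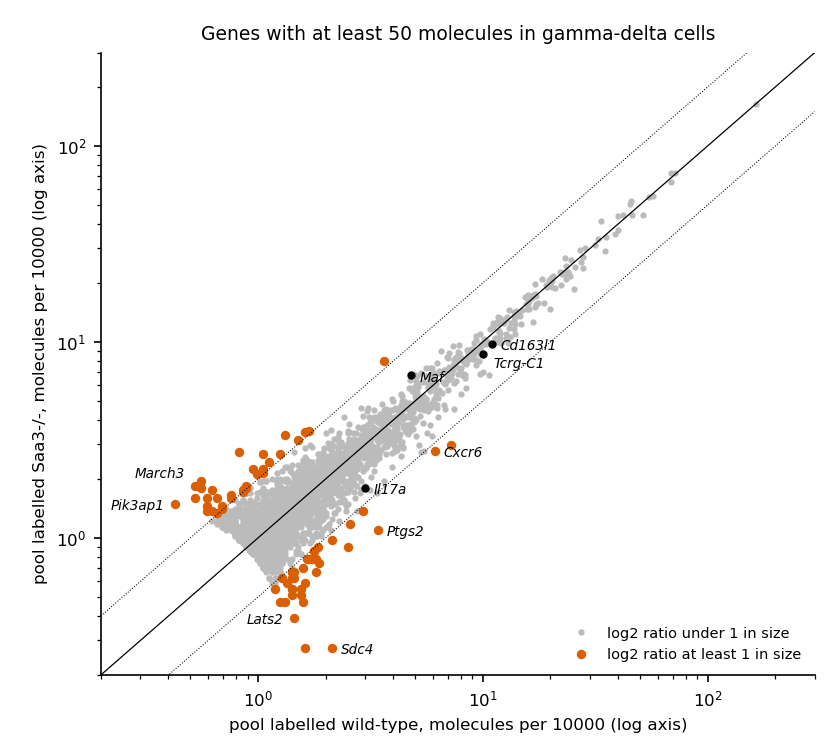
Level of 2309 genes in the gamma-delta cells of the pool labelled wild-type (x axis) and the pool labelled Saa3-/- (y axis), as molecules per 10000 on log axes, 1 point per gene. The solid line marks equal levels, dotted lines a ratio of 2-fold, and orange points the 71 genes beyond it. Cd163l1, Tcrg-C1, Maf and Il17a (black) lie inside the dotted lines, and Sdc4 and Cxcr6 below them.

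Lower in the pool labelled Saa3-/- were Sdc4, Lats2, Gm20186, Ptgs2 and Cnot4, taken as the 5 furthest with no single cell holding over 50% of the higher pool's molecules. Sdc4, the heparan sulfate proteoglycan syndecan-4, was at 2.14 molecules per 10000 (1.65 to 2.73) in the pool labelled wild-type, in 29 of 57 cells, and at 0.275 (0.110 to 0.566) in the pool labelled Saa3-/-, in 4 of 50. The log2 ratio was -2.87. In other CD3 cells the same ratio was 0.70, at 0.239 and 0.393 per 10000. Ptgs2, the inducible cyclooxygenase, was at 3.43 (2.80 to 4.15) in 20 cells and 1.10 (0.730 to 1.59) in 9, a ratio of -1.62, with 23 of the 104 molecules in 1 cell. It was higher in gamma-delta than other CD3 cells in both pools (log2 fold change 3.85, SE 0.37). Lats2, a kinase of the Hippo pathway, was found in 29 and 9 cells, with a ratio of -1.83, and Gm20186 and Cnot4 had ratios of -1.70 and -1.56, with 20.8% and 29.8% of the higher pool's molecules in 1 cell.

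Cxcr6 was the 1 gene of the homing list past the limit. Under the wild-type label it was at 6.16 molecules per 10000 (5.31 to 7.11), in 43 of 57 cells, and under the Saa3-/- label at 2.79 (2.18 to 3.51), in 28 of 50, a ratio of -1.14. The intervals did not overlap, and other CD3 cells differed in the same direction, at 1.17 and 0.478. With each cell thinned to 2000 molecules the pool ratio of Cxcr6 was -0.89, and with CD3 required of each cell it was -0.91.

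Higher in the pool labelled Saa3-/- were March3, Pik3ap1, Pola1, Tulp4 and March6. Pik3ap1, an adaptor of phosphoinositide 3-kinase, was at 0.428 (0.228 to 0.732) in 8 cells and 1.49 (1.06 to 2.05) in 17, a ratio of 1.76. March3, a ubiquitin ligase, was at 0.527 and 1.84 with a ratio of 1.78, and 23.4% of its molecules in the higher pool were in 1 cell. March6 had a ratio of 1.48 and was found in 12 of 57 and 28 of 50 cells. Pola1, a DNA polymerase subunit, had a ratio of 1.66 with 39.1% of the higher pool's molecules in 1 cell.

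Some further ratios changed sign without 1 cell or without the cells with thymocyte genes. Gzma and Ccl5 had ratios of 1.33 each, and 80.0% and 82.4% of their molecules in the pool labelled Saa3-/- were in 1 cell, the one with Klra8. Without the highest cell of each pool the ratios were -0.28 and -0.19. The pool ratio of Cd8b1 was 1.72, with 52.9% of the higher pool in 1 cell, and -3.60 without cells with thymocyte genes. The -3.60 rests on 8 molecules in 3 of 90 cells, 6 of them in 1 cell. All 3 cells were in the pool labelled wild-type, so its size depends on the pseudocount. In 7 of the 71 genes past the limit more than 50% of the higher pool's molecules came from 1 cell.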

How the data were processed

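Deposited count tables, 1 per sample tag, hold whole-number counts of molecules per cell for 26189 genes. Per the file headers the authors made them with the BD Rhapsody pipeline 1.11.1 on GRCm38 with GENCODE release 19, with intronic reads counted and refined calling of cells. Another deposited table gives tag calls for 2401 putative cells, of which 11 were multiplets and 647 undetermined. The submitters' processing notes also name R 4.3.1 and Seurat 4.3.0. Tag and genotype are linked only by table names. The 4 macrophage cultures were not analysed here.

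Members, markers and gene lists were chosen with earlier results of these data known. Counts were summed per class and pool and tested with edgeR 4.0.16 (R 4.3.3, TMM, filterByExpr, pool as block). The pools serve as replicates of the cell contrast only, and p-values measure the spread between these sums. Named genes were the 10 furthest called genes each way with at least 20 molecules and 2-fold in both pools, the 5 furthest pool ratios each way at a log2 ratio of at least 1, with no more than 50% of molecules in 1 cell, and list members. Pool ratios used a pseudocount of 0.5 molecules. Levels carry exact Poisson and shares exact binomial (Clopper-Pearson) 95% intervals (scipy 1.17.1). No doublet caller was run. Alternatives were DESeq2 1.42.0, other scalings, filters, gates and pseudocounts, 1 pool left out, and cells thinned to 2000 molecules. Positions are from GENCODE release 21 and promoters from RefSeq. Some items are not reported here.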

Additional observations from a re-analysis of the deposited data

Results flagged for a closer look

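Mki67, a gene of dividing cells, stood in opposite directions in the 2 pools. The log2 ratio of gamma-delta over other CD3 cells was -0.58 in the pool labelled wild-type and 0.54 in the pool labelled Saa3-/-, a difference of 1.12 that was not tested, since each genotype had 1 pool. Its molecules came from 7 of 57 and 12 of 50 gamma-delta cells, and 197 of the 215 were in the 17 cells with thymocyte genes, which made up 10.5% and 22.0% of the gamma-delta cells by pool. Without such cells in either class the Mki67 ratios were -2.11 and -1.04, both below 0. Cnot4, a ubiquitin ligase subunit of the CCR4-NOT complex, had 0.70 under the wild-type label and -1.34 under the Saa3-/- label, a difference of -2.04. Of its 47 molecules under the wild-type label 14 were in 1 cell, and without that cell the ratio there was 0.22. March6, a ubiquitin ligase of the endoplasmic reticulum, stood at -0.80 and 0.73, a difference of 1.52. Cnot4 and March6 were among the genes picked for their distance between pools. Their differences were not tested.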

How the results depend on the processing

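Of the 110 genes on lists or named that were called, 55 showed no loss of call or direction in any alternative with a test. No reversal was seen for 107. A gene that an alternative did not test, or gave no adjusted p, was not counted as a loss. Thinning, for example, covered fewer genes, with 85 kept and 7 lost. Against 737 called genes (440 higher, 297 lower), DESeq2 called 190 (145 and 45), with 11541 genes tested, and 52 of the 110 lost their call. The fit with no replicate block (no pool term) called 478 (308 and 170), and 12 of the 110 lost their call. Thinned cells gave 194 lower calls among 4271 genes tested. Requiring CD3 put Gzma at -0.81, at least 5 Trdc molecules put it at -1.18, Mki67 at -0.36 and Stmn1 at -0.033, and leaving cells with thymocyte genes out of both classes (chosen after seeing the data) put Gzma at -0.38, Mki67 at -1.75, Stmn1 at -0.52 and Trbc1 at -0.21. Leaving them out of the comparison class alone put Rag1 at 7.19, since that choice removes its molecules there by construction, Sox4 at 0.47 and Tcf7 at 0.67. Thinning put Trbc1 at -0.54, and total scaling and no filter put Mki67 at -0.028 and -0.027. With 1 pool left out there is no test, and the ratio ranged from -0.26 to 0.73 for Gzma and from -0.58 to 0.54 for Mki67. Scaling by totals moved the median of all genes to -0.07 and the split to 394 higher and 342 lower. Apart from the choices that define a class by a gene, the cause of these shifts was not tested.

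Between pools, thinning left 693 genes and 7 past the limit (1 toward the Saa3-/- label and 6 toward the wild-type label), and the other alternatives gave 52 to 84. The pool ratio of Ccl5 was -0.19 without the highest cell of each pool, -1.27 with CD3 required and -1.24 with at least 5 Trdc molecules. The pool ratio of Gzma under the same settings was -0.28, -1.34 and -1.04. The pool ratio of Cd8b1 was -3.60 without cells with thymocyte genes, on 8 molecules in 3 cells. Shares of gamma-delta cells stayed within their counting intervals under every alternative run. Depth limits absence: a gene at 0 may be missed at these depths. Values without 1 named cell for Tcf7, Satb1 and Cnot4 were likewise chosen after seeing the data.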
